A study of Homo sapiens with 12 samples.

Results

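The 33 genes described here encode enzymes that build purine and pyrimidine nucleotides. They were taken by symbol from a table of 26475 gene symbols, all 33 were present, and all 33 were among the 14582 genes that passed the filter on low counts. By role they fall into 6 groups: purine de novo synthesis (PRPS1, PRPS2, PPAT, GART, PFAS, PAICS, ADSL and ATIC), the branches to AMP and GMP (IMPDH1, IMPDH2, GMPS and ADSS), pyrimidine de novo synthesis (CAD, DHODH, UMPS, CTPS1 and CTPS2), deoxynucleotide synthesis (TYMS, DTYMK, DCTD, DUT, RRM1, RRM2 and RRM2B), salvage (TK1, DCK, HPRT1, APRT, UCK1 and UCK2) and the nucleoside mono- and diphosphate kinases (CMPK1, GUK1 and NME1). RNA-seq was performed on MIAPaCa2, an established human pancreatic ductal adenocarcinoma (PDAC) cell line, to compare the response to the LDHA inhibitor oxamate with resistance to it. There were 4 groups of 3 libraries each: parental cells given vehicle or oxamate, and oxamate-resistant cells given vehicle or oxamate. The vehicle groups carry the label untreated, and the oxamate groups carry the name of the inhibitor class. The resistant cells were a polyclonal population selected from the parental line in 10 mM oxamate over 4 weeks, and the time of oxamate exposure before RNA extraction is not given in the sources used here. Nothing in those sources says whether the 3 libraries of a group came from separate cultures, so the p-values measure only the spread between these libraries.

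Nucleotides are made by a de novo route, which assembles the base from amino acids, one-carbon units, carbon dioxide and activated ribose, and by a salvage route, which reattaches free bases to ribose phosphate or phosphorylates nucleosides. The purine ring is built on ribose phosphate from the start, whereas the pyrimidine ring is closed first and then joined to it. Ribonucleotide reductase converts ribonucleotides to deoxynucleotides for DNA replication, and the genes for its regulated subunit RRM2, for thymidylate synthase and for thymidine kinase are textbook genes of the S phase.

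The libraries held 46698729 to 114222169 expected counts in total, and every parental library was deeper than every resistant one. The members lay between 779 and 32856 expected counts in every library, so counting error was small for all of them. KRT8, KRT18, KRT19 and VIM were abundant in all 12 libraries, EPCAM had at most 3 counts, CDKN2A and MTAP (a purine salvage enzyme) had 0 counts, which allows up to 3 counts per library, and PTPRC, CD3E, DCN, INS, PRSS1 and ALB had at most 3 counts in any library. PECAM1 reached 11, CDH5 57 and COL1A1 137 counts. The nuclear RNAs MALAT1 and NEAT1 stood apart in the third library of oxamate-treated parental cells and of vehicle-treated resistant cells, where MALAT1 was 2.09 and 2.31 times the median of the other libraries of the group. These RNAs were picked out after their values were seen. The level of MALAT1 also differed between groups, as given below. Levels below are counts per 1000000 of the library total after TMM scaling, which sets libraries to a common level through the bulk of their genes (TMM CPM), fold changes come from edgeR's quasi-likelihood test on all 12 libraries, and a gene was called higher or lower at a Benjamini-Hochberg adjusted p under 0.05 over all 14582 genes. A second rule also asked for a fold over 1.5.

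The promoters of the genes were read from RefSeq (GRCh38.p14), which gave 45 windows of 300 bases for 30 of the 33 genes and none for ADSL, IMPDH2 and RRM2B. ADSS is listed there as ADSS2. The gene start in the distances below is the start site of each window, which can differ from the start in the GENCODE annotation used for gene positions. For PFAS and RRM2, among others, the stretch shown lies inside the GENCODE span of the gene. The first pair shown belongs to UMPS and PFAS, the genes whose oxamate response differed most between the lines. Neither window held any of the 4 motifs searched.

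UMPS, chr3:124730272-124730361, plus strand, 180 to 91 bases before the gene start: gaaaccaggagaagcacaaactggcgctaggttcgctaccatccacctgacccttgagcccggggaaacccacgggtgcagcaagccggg

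PFAS, chr17:8249189-8249278, plus strand, 100 to 11 bases before the gene start: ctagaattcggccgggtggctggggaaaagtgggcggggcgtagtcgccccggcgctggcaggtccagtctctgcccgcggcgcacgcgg

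The motifs, searched on both strands, were the E-box CACGTG, an E2F motif in 4 spellings (TTTCCCGC, TTTCGCGC, TTTGCCGC and TTTGGCGC), the amino acid response element TGATGNAA and the CCAAT box. Stretches of 30 bases around a match are shown for some of the members, as examples, with the motif, on either strand, in capitals.

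GART, chr21:33542987-33543016, minus strand: gCCAATtcggtctctcgccttcctgATTGG

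PPAT, chr4:56435780-56435809, minus strand: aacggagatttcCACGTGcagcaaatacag

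DHODH, chr16:72008573-72008602, plus strand: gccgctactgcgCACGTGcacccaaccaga

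TYMS, chr18:657603-657632, plus strand: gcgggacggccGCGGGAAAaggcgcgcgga

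DUT, chr15:48332151-48332180, plus strand: gctgGCGGGAAAtttcggtTTTGGCGCgct

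RRM2, chr2:10122643-10122672, plus strand: cagCCAATgggaagggccggggcaccaaag

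An E-box lay in 6 of the 45 member windows (13.3%) and in 7.26% of all 35116 promoter windows, and an E2F motif lay in 5 of the 45 (11.1%) and in 3.31% of all. The amino acid response element was found in 1 member window (2.22%, against 3.62%) and the CCAAT box in 13 (28.9%, against 34.6%). The E2F matches were those of PRPS2, GART, TYMS, DUT and DCK, and the E-box matches those of PPAT, PAICS, ATIC, DHODH, DCK and NME1. Several genes have more than 1 window, and these overlap, so the windows are not independent. A match is a run of letters and not a bound site. PPAT and PAICS are transcribed in opposite directions from starts 126 bases apart, and their E-box is the same one.

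In vehicle-treated parental cells the members spanned a wide range of levels per kilobase of the principal GENCODE transcript. NME1 (181 TMM CPM per kb), IMPDH2 (169 TMM CPM per kb) and GUK1 (138 TMM CPM per kb) were the most abundant. UMPS (3.64 TMM CPM per kb), PFAS (4.68 TMM CPM per kb), RRM2B (5.96 TMM CPM per kb) and DHODH (7.96 TMM CPM per kb) were the least abundant. UMPS, at the bottom of this order in parental cells, stood at 5.20 TMM CPM per kb in vehicle-treated and 5.56 TMM CPM per kb in oxamate-treated resistant cells.

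The first comparison asked what oxamate did in parental cells. Of the de novo genes, 4 of 5 for pyrimidines and 7 of 8 for purines were lower after oxamate, while the genes for RRM2, TK1, GUK1 and PAICS were higher. Of the 33 genes, 18 were lower, 13 were higher and 2 (DCK and CMPK1) did not pass the test, where 30.4% of all genes tested were called lower and 28.3% higher. The share of members called was therefore above that of all genes in both directions. All members had at least 779 counts in every library, while genes such as CMPK2 (at most 19 counts) were tested too. Small changes are called more easily at high counts. The shares here and below were not matched for level and are descriptions only. Most changes were small: only UMPS and CTPS1 passed a fold of 1.5, both lower, and 0 were higher by that rule or at an unadjusted p under 0.05 with that fold, against 4.06% and 5.32% of all genes. The median log2 fold change was -0.08 over the 33 genes and 0.003 over all genes tested. The count of higher genes rested on single libraries, as it was 7 without the second vehicle-treated library and 6 without the first oxamate-treated library. Without TMM, on library size alone, it was 4, and this scaling shifted the median of all genes by -0.07.

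Pyrimidine de novo synthesis held the largest decreases, with 4 of 5 genes lower and a median of -0.36 on the log2 scale. UMPS (chromosome 3, 124730366-124749273, plus strand, 6 exons), which encodes the bifunctional enzyme that attaches orotate to ribose phosphate and decarboxylates it to UMP, was at 24.1, 25.6 and 24.0 TMM CPM after vehicle and at 14.8, 14.8 and 14.9 TMM CPM after oxamate. The groups were far apart, and the 3 oxamate-treated libraries were almost the same. The log2 fold change of UMPS was -0.73 (standard error, SE, 0.04, 1.66-fold lower, adjusted p = 3.63e-10, Benjamini-Hochberg adjusted, quasi-likelihood test of edgeR). CTPS1 (chromosome 1, 40979335-41012565, plus strand, 19 exons), the CTP synthase that converts UTP to CTP, was at 37.0, 37.9 and 37.2 TMM CPM after vehicle and at 23.2, 24.2 and 22.4 TMM CPM after oxamate. Here too every oxamate-treated library lay below every vehicle-treated library, with a log2 fold change of -0.69 (SE 0.03, 1.61-fold lower, adjusted p = 3.09e-10). Its paralogue CTPS2 went the other way, at 58.6, 59.2 and 60.0 TMM CPM after vehicle and 65.6, 65.1 and 60.6 TMM CPM after oxamate (log2 fold change 0.10, adjusted p = 0.0122), a call that was lost without the first oxamate-treated library and with library size alone (adjusted p = 0.0598 and 0.387).

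CAD and DHODH act earlier in the same route. CAD, the multifunctional protein that starts the pathway from glutamine, was at 198, 192 and 198 TMM CPM after vehicle and at 147, 147 and 166 TMM CPM after oxamate. The third oxamate-treated library, one of the libraries with high MALAT1, was the highest of its group and still below every vehicle-treated library. DHODH, the mitochondrial enzyme that oxidizes dihydroorotate to orotate, was at 19.9, 18.7 and 19.3 TMM CPM after vehicle and at 15.2, 15.6 and 14.4 TMM CPM after oxamate. Both genes had a log2 fold change of -0.36, with SEs of 0.05 and 0.04 and adjusted p-values of 3.51e-05 and 3.08e-06 from edgeR's quasi-likelihood test. Summed over the 5 pyrimidine genes, the level was 338, 334 and 339 TMM CPM after vehicle and 266, 266 and 278 TMM CPM after oxamate, so the groups did not overlap.

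Among the purine de novo genes, 7 of 8 were lower and 1, PAICS, was higher, with a median of -0.21. GART, which carries out 3 steps of the ring assembly and uses formyl folate in one of them, fell from 300, 301 and 311 TMM CPM to 225, 229 and 224 TMM CPM, a log2 fold change of -0.43 (SE 0.02, adjusted p = 6.89e-10, quasi-likelihood test of edgeR). PFAS, the amidotransferase of the ring assembly, was at 25, 25.6 and 24.7 TMM CPM after vehicle and at 18.8, 18.0 and 22.7 TMM CPM after oxamate (log2 fold change -0.34, SE 0.08). In oxamate-treated cells the third library stood closest to the vehicle-treated ones, as for CAD. Without that library the log2 fold change of PFAS was -0.45. ADSL, ATIC, PRPS1, PRPS2 and PPAT were lower by 0.23, 0.21, 0.21, 0.07 and 0.08 on the log2 scale, respectively, and the calls of PRPS2 and PPAT were lost when any of several single libraries was left out.

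PAICS, which encodes a bifunctional enzyme of the middle of the purine route, was at 307, 311 and 324 TMM CPM after vehicle and at 362, 356 and 336 TMM CPM after oxamate. Every oxamate-treated library was above every vehicle-treated one, with a log2 fold change of 0.16 (SE 0.03, adjusted p = 0.000277, quasi-likelihood test of edgeR). PPAT, which shares its start region with PAICS and encodes the committing enzyme of the purine route, was at 50.8, 52.4 and 54.4 TMM CPM after vehicle and at 48.8, 51.7 and 48.4 TMM CPM after oxamate, and these ranges overlapped. In the branches from IMP, GMPS and ADSS were lower by 0.11 and 0.14 on the log2 scale, and IMPDH1 and IMPDH2 were each higher by 0.08. IMPDH1 and IMPDH2, the paralogues that catalyse the first step toward GMP, lost these calls without single libraries, and with library size alone the log2 fold change of IMPDH1 was 0.004 and that of IMPDH2 was 0.002.

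The deoxynucleotide genes did not move as a group after oxamate in parental cells: 4 were higher, 3 were lower and their median log2 fold change was 0.07. RRM2, the regulated small subunit of ribonucleotide reductase, was at 310, 310 and 313 TMM CPM after vehicle and at 394, 392 and 374 TMM CPM after oxamate. These groups were clearly separated, with a log2 fold change of 0.31 (SE 0.02, adjusted p = 2.79e-08, quasi-likelihood test of edgeR). RRM2B, the p53-inducible paralogue of RRM2, was at 28.5, 29.3 and 30.5 TMM CPM after vehicle and at 25.7, 26.4 and 24.7 TMM CPM after oxamate (log2 fold change -0.20, adjusted p = 0.00081). The paralogues thus moved in opposite directions. TYMS, DUT and RRM1 were higher by 0.08, 0.11 and 0.07, and DTYMK and DCTD were lower by 0.12 each. The calls of TYMS, RRM1 and DTYMK were lost in 3, 4 and 4 of 6 fits without a single library. For RRM1 and DTYMK the groups also overlapped. With library size alone the log2 fold changes of TYMS, DUT and RRM1 were 0.002, 0.03 and -0.004, and 1 gene of the group was called higher and 3 lower.

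In the salvage group TK1, the cytosolic thymidine kinase, rose from 108, 102 and 100 TMM CPM to 122, 123 and 126 TMM CPM, a log2 fold change of 0.26 (SE 0.03, adjusted p = 2.69e-06, quasi-likelihood test of edgeR). UCK2, the kinase that phosphorylates uridine and cytidine to UMP and CMP, fell from 104, 99.7 and 95.7 TMM CPM to 77.7, 77.2 and 76.5 TMM CPM (log2 fold change -0.37, SE 0.03). UCK2 was the only salvage gene called lower. Its paralogue UCK1 was at 36.5, 35.5 and 34.7 TMM CPM after vehicle and at 40.0, 37.9 and 37.0 TMM CPM after oxamate (log2 fold change 0.11, adjusted p = 0.0404), a call lost in 4 of 6 fits without a single library. HPRT1 and APRT, the purine base salvage enzymes, were higher by 0.13 and 0.10 on the log2 scale. Neither passed on library size alone (0.05 and 0.03, adjusted p = 0.0753 and 0.521), and APRT was lost in 3 of 6 fits without a single library. GUK1, the guanylate kinase, rose from 185, 175 and 169 TMM CPM to 224, 217 and 218 TMM CPM (log2 fold change 0.32, SE 0.03, adjusted p = 2.32e-07), and NME1, a nucleoside diphosphate kinase, was lower by 0.11. The call of NME1 was lost in 3 of 6 fits without a single library.

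The second comparison asked what oxamate did in resistant cells, where far fewer members were called. Of the 33 genes, 11 were lower, 2 were higher and 20 did not pass the test, where 12.5% of all genes tested were called lower and 9.01% higher. The share of members called lower was above that of all genes, and the share called higher was below it. By the rule that added a fold of 1.5, 0 members were higher and 0 lower, against 1.16% and 0.158% of all genes, and at an unadjusted p under 0.05 with that fold the counts were also 0. The median log2 fold change of the members was -0.05, and that of all genes tested was at 0 to 2 decimals (-2.06e-05). TK1 and PFAS were the higher genes. TK1 was at 59.9, 60.5 and 57.5 TMM CPM after vehicle and at 71.0, 68.8 and 70.5 TMM CPM after oxamate, with no overlap (log2 fold change 0.24, SE 0.03, adjusted p = 0.000131, quasi-likelihood test of edgeR). PFAS was at 26.4, 26.8 and 32.5 TMM CPM after vehicle and at 33.6, 32.5 and 36.5 TMM CPM after oxamate (log2 fold change 0.26, adjusted p = 0.0320). The third vehicle-treated library, with high MALAT1, nearly reached the oxamate-treated ones, and the call of PFAS was lost without the first or second vehicle-treated or the first or the third oxamate-treated library (highest adjusted p = 0.143), which left 1 higher gene. The called decreases were those of PRPS1, PPAT, GART, ATIC, IMPDH2, GMPS, ADSS, CTPS1, DCTD, UCK2 and NME1, between -0.18 and -0.10 on the log2 scale. Of these, PRPS1 and NME1 were lost in 4 and GMPS in 2 of 6 fits without a single library, GMPS also on library size alone (adjusted p = 0.0603), and the count of lower genes ran from 8 to 11.

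**Figure D1:**
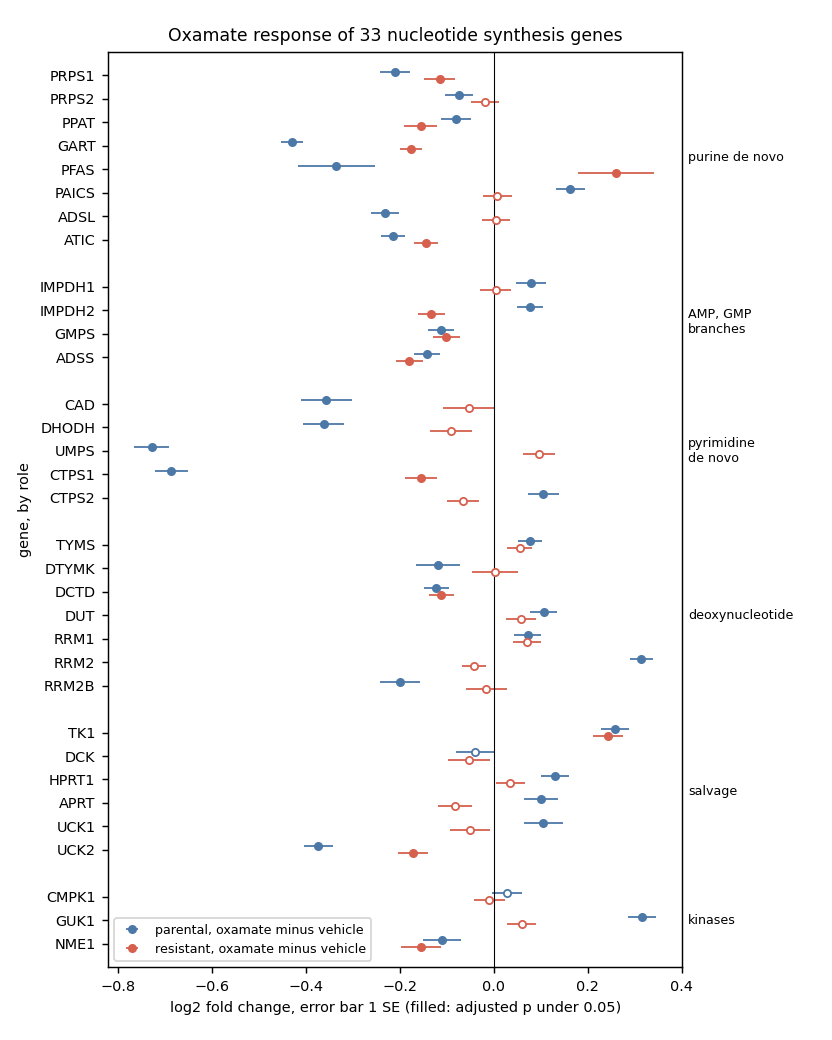
Log2 fold change after oxamate of each of the 33 genes, by role, in parental cells (blue) and in resistant cells (red), with bars of 1 standard error (SE) and filled points at an adjusted p under 0.05. UMPS and CTPS1 lie at -0.73 and -0.69 in parental cells, and every value in resistant cells lies between -0.18 and 0.26.

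The difference between these responses was tested directly, as a contrast of the same model. Positive values mean that the level after oxamate, relative to vehicle, was higher in resistant than in parental cells. The test called 9 genes positive, 7 negative and 17 neither, where 22.7% of all genes tested were positive and 21.4% negative. The members' share was thus close to that of all genes in both directions. UMPS and PFAS alone passed a ratio of 1.5, both positive and with 0 negative, against 4.99% and 2.53% of all genes. All 5 pyrimidine de novo genes passed the test, 4 positive (UMPS 0.82, CTPS1 0.53, CAD 0.30 and DHODH 0.27) and CTPS2 negative (-0.17), with a group median of 0.30. The SE of UMPS was 0.05 and its adjusted p was 9.75e-09, and for CTPS1 the adjusted p was 5.32e-07. In the purine de novo group PFAS (0.59), GART (0.25) and ADSL (0.24) were positive and PAICS (-0.15) was negative. The other positive genes were UCK2 (0.20) and RRM2B (0.18), and the other negative genes were RRM2 (-0.36), GUK1 (-0.26), IMPDH2 (-0.21), APRT (-0.18) and UCK1 (-0.16). The calls of RRM2B and UCK1 were each lost in several fits without a single library, and those of PAICS, CTPS2, APRT and UCK1 on library size alone (lowest adjusted p = 0.197). Library size alone, which moved the median of all genes by 0.11, gave 17 positive and 3 negative genes.

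In resistant cells UMPS was at 35.5, 34.7 and 34.9 TMM CPM after vehicle and at 37.0, 38.7 and 36.6 TMM CPM after oxamate, and all 6 values were above all 6 parental values. CTPS1 was at 35.5, 35.7 and 34.4 TMM CPM after vehicle and at 30.8, 32.4 and 31.7 TMM CPM after oxamate, below vehicle but above every oxamate-treated parental library. CAD was at 155, 156 and 176 TMM CPM after vehicle and at 153, 149 and 167 TMM CPM after oxamate. These CAD values overlapped each other and the oxamate-treated parental values. In both resistant groups the third library was again the highest for CAD, as it was for PFAS, and in the third vehicle-treated one MALAT1 was also high. The part of these nuclear RNAs in the values was not tested. With that library and the third oxamate-treated parental library left out together, the counts of the difference between responses were 8 positive and 9 negative.

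**Figure D2:**
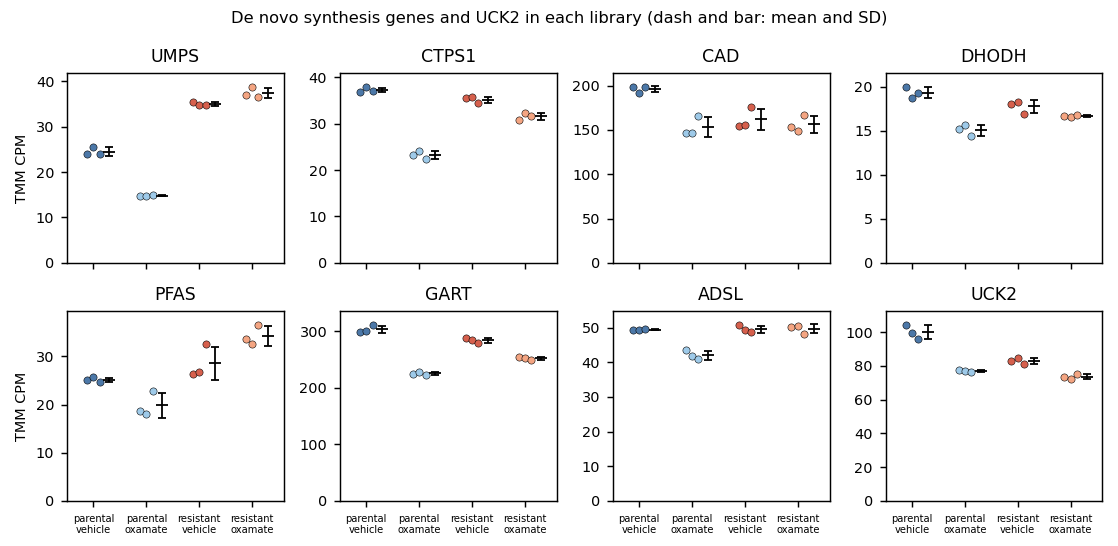
TMM CPM of 8 genes in each of the 12 libraries, with the mean and SD of each group beside the points and axes that start at 0. UMPS falls from 24.5 to 14.8 in parental cells and lies at 35.0 and 37.4 in resistant cells, and the third library is the highest of its group for CAD and PFAS in oxamate-treated parental and both resistant groups.

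The third comparison set vehicle-treated resistant cells against vehicle-treated parental cells. RRM2, RRM1, TYMS and DUT, the salvage genes TK1 and DCK and the kinases NME1 and GUK1 were lower in resistant cells. UMPS was higher. Of the 33 genes, 27 were lower, 3 were higher (UMPS, PFAS and UCK1) and 3 (ADSL, CTPS2 and RRM2B) did not pass, where 37.3% of all genes tested were called lower and 38.4% higher. On this scaling the share called lower was above, and the share called higher below, that of all genes, as a description with no test. With a fold over 1.5, 4 members were lower (RRM2, TK1, TYMS and NME1) and 0 were higher, also at an unadjusted p, against 6.09% and 17% of all genes. The median log2 fold change was -0.23 for the members and 0.03 for all genes. The counts depend on the scaling: library size alone, which moved the median of all genes by 0.22, gave 13 lower and 12 higher members, and upper-quartile factors gave 5 higher. Small differences of this comparison, and their direction, are therefore tied to TMM. In bulk samples fewer cells in a phase and less RNA per cell cannot be told apart.

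RRM2 (chromosome 2, 10120698-10131419, plus strand, 11 exons) differed most. It was at 310, 310 and 313 TMM CPM in parental cells and at 146, 147 and 146 TMM CPM in resistant cells after vehicle. The 3 libraries of each group were within a few units of each other, and the log2 fold change was -1.09 (SE 0.02, 2.12-fold lower, adjusted p = 5.37e-15, Benjamini-Hochberg adjusted, quasi-likelihood test of edgeR) and -0.87 with library size alone. RRM1, the large subunit of the same enzyme, was at 146, 146 and 154 TMM CPM in parental and at 101, 104 and 105 TMM CPM in resistant cells (log2 fold change -0.53), while RRM2B was at 29.8, 27.9 and 27.8 TMM CPM in resistant cells, within the parental range of 28.5 to 30.5 for 1 library and below it for the others (adjusted p = 0.352). TYMS (chromosome 18, 657604-673578, plus strand, 7 exons), which makes dTMP from dUMP, was at 188, 184 and 187 TMM CPM in parental and at 118, 119 and 117 TMM CPM in resistant cells (log2 fold change -0.66, SE 0.03, adjusted p = 2.99e-12). DUT, the dUTPase that supplies dUMP, was at 62.6, 61.4 and 58.8 TMM CPM in parental and at 41.4, 42.6 and 41.2 TMM CPM in resistant cells (log2 fold change -0.55). All these genes except RRM2B were without overlap between the lines. The share of all genes tested without overlap was not counted, in this or the other comparisons, so such separation is description only. DCTD and DTYMK were lower by 0.09 and 0.17 on the log2 scale, DTYMK with overlap. With library size alone they were at 0.13 and 0.05, and 2 genes of the deoxynucleotide group were called higher and 4 lower.

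In the salvage group TK1 (chromosome 17, 78174075-78187233, minus strand, 7 exons) was at 108, 102 and 100 TMM CPM in parental and at 59.9, 60.5 and 57.5 TMM CPM in resistant cells, a log2 fold change of -0.80 (SE 0.03, 1.75-fold lower, adjusted p = 2.77e-12, quasi-likelihood test of edgeR). DCK, the deoxycytidine kinase that also activates gemcitabine, was at 25.8, 26.8 and 28.4 TMM CPM in parental and at 18.2, 17.8 and 18.2 TMM CPM in resistant cells (log2 fold change -0.58, SE 0.04, 1.49-fold lower). The lines were separated for both kinases. HPRT1, UCK2 and APRT were lower by 0.37, 0.27 and 0.21, and UCK1 was higher by 0.18. With library size alone TK1 and DCK kept a lower level in resistant cells (-0.58 and -0.36), whereas UCK2 did not pass (-0.05, adjusted p = 0.126) and APRT was at 0.01.

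NME1 was at 176, 165 and 171 TMM CPM in parental and at 112, 115 and 105 TMM CPM in resistant cells (log2 fold change -0.63, SE 0.04, 1.54-fold lower). GUK1 was at 136, 137 and 133 TMM CPM in resistant cells, below the parental range of 169 to 185, and CMPK1, the UMP-CMP kinase, was lower by 0.27 on the log2 scale. On library size alone NME1 and GUK1 remained called lower (-0.41 and -0.16), and CMPK1 did not pass (-0.05, adjusted p = 0.135). IMPDH1 was at 133, 129 and 129 TMM CPM in parental and at 89.1, 95.2 and 86.9 TMM CPM in resistant cells (log2 fold change -0.53), and IMPDH2 was at 281, 277 and 273 TMM CPM in parental and at 247, 254 and 236 TMM CPM in resistant cells (log2 fold change -0.17, which was 0.05 with library size alone). GMPS and ADSS were lower by 0.23 and 0.09, which became -0.007 and 0.13 on library size alone.

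The early purine genes PPAT, PRPS1, PAICS and PRPS2 were lower in resistant cells by 0.50, 0.48, 0.41 and 0.23 on the log2 scale. PRPS1, one of the synthetases that make the activated ribose, was at 104, 103 and 104 TMM CPM in parental and at 75.0, 75.6 and 71.5 TMM CPM in resistant cells. PRPS2 was at 157, 158 and 165 TMM CPM in parental and at 136, 138 and 137 TMM CPM in resistant cells. Neither paralogue overlapped between the lines, but PRPS2 did not pass on library size alone (-0.007, adjusted p = 0.821). PPAT was at 36.4, 37.9 and 37.3 TMM CPM and PAICS at 236, 240 and 231 TMM CPM in resistant cells, so that this divergent pair lay lower together. GART, ATIC, DHODH and CTPS1 were lower by 0.09, 0.14, 0.12 and 0.09, and each of these turned positive with library size alone. PFAS was higher by 0.19 (adjusted p = 0.0460), a call lost without any 1 of the parental libraries or without the third resistant library, which had the highest PFAS level of its group.

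UMPS was higher, with a log2 fold change of 0.51 (SE 0.03, 1.43-fold higher, adjusted p = 1.49e-09, quasi-likelihood test of edgeR) and 0.73 with library size alone. CAD was lower by 0.27 (-0.05 with library size alone), and CTPS2 was at 59.8, 61.3 and 60.3 TMM CPM, a range that overlapped the parental one of 58.6 to 60.0 TMM CPM and was not called.

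**Figure D3:**
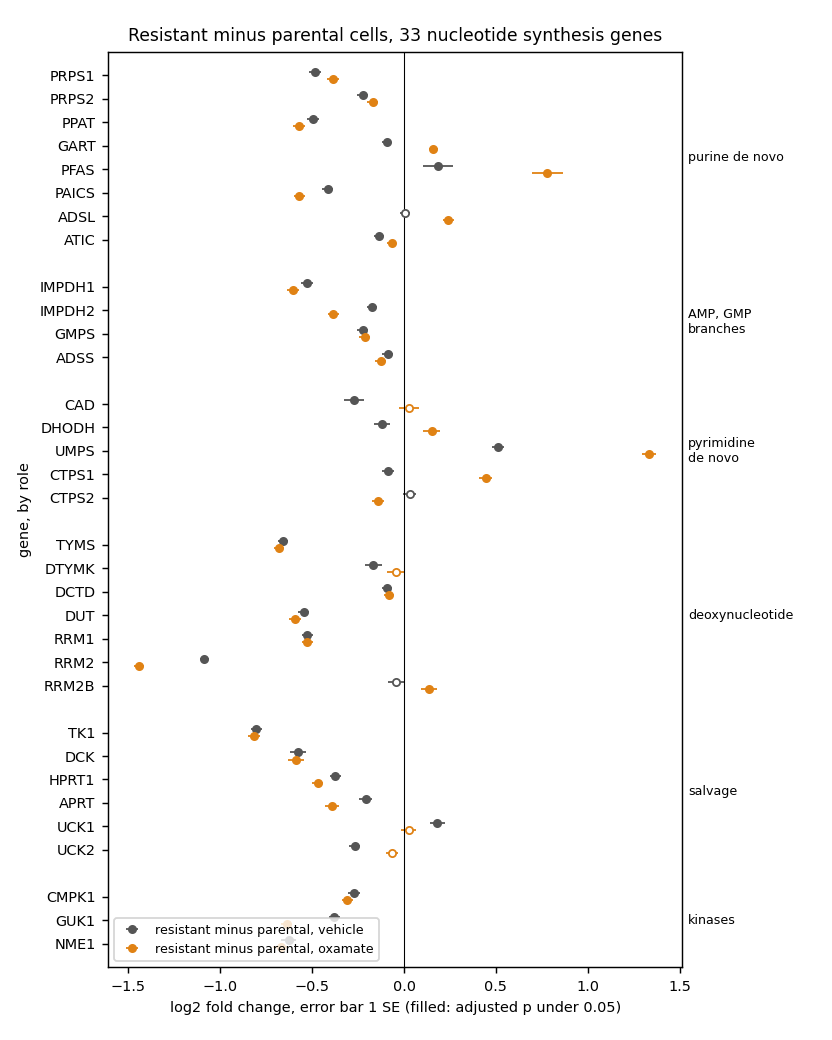
Log2 fold change between resistant and parental cells of each of the 33 genes, by role, after vehicle (grey) and after oxamate (orange), with bars of 1 standard error (SE) and filled points at an adjusted p under 0.05, on TMM scaling. RRM2 is the lowest at -1.09 and -1.44, and UMPS the highest at 0.51 and 1.33.

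The fourth comparison set the lines against each other under oxamate. It shares its libraries with the comparisons above, so it is not separate evidence. Of the 33 genes, 22 were lower in resistant cells, 7 were higher and 4 (CAD, DTYMK, UCK1 and UCK2) did not pass, where 39.7% of all genes tested were called lower and 40.6% higher, again a larger share of lower and a smaller share of higher calls among the members. With a fold over 1.5, 8 were lower and 2 higher, against 11.4% and 22.7% of all genes. The median log2 fold change was -0.21 for the members and 0.01 for all genes, and with library size alone, which moved the median of all genes by 0.32, 14 members were lower and 17 higher. RRM2 was at 394, 392 and 374 TMM CPM in parental and at 140, 145 and 141 TMM CPM in resistant cells, a log2 fold change of -1.44 (SE 0.03, 2.72-fold lower, adjusted p = 1.16e-16, quasi-likelihood test of edgeR). RRM2 had risen after oxamate in parental cells and was not called in resistant cells (-0.04, adjusted p = 0.252), and the test of the difference between these responses gave -0.36 (adjusted p = 1.02e-06). TK1 (-0.82), TYMS (-0.68), NME1 (-0.67), GUK1 (-0.64), IMPDH1 (-0.60), DUT (-0.59) and DCK (-0.59) completed the lower genes past a fold of 1.5. With library size alone these 8 stayed lower, between -1.12 for RRM2 and -0.27 for DCK and DUT.

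On the other side, UMPS was higher in resistant cells under oxamate by a log2 fold change of 1.33 (SE 0.04, 2.52-fold higher, adjusted p = 2.28e-14, quasi-likelihood test of edgeR) and PFAS by 0.78 (SE 0.08, 1.72-fold higher, adjusted p = 2.56e-07). Neither gene overlapped between the lines. CTPS1, ADSL, GART, DHODH and RRM2B were higher by 0.45, 0.24, 0.16, 0.15 and 0.14. On TMM scaling the de novo pyrimidine group had a median of 0.15, against -0.53 for the deoxynucleotide group, -0.43 for salvage and -0.64 for the kinases. On library size alone these medians were 0.47, -0.20, -0.11 and -0.31, and those of purine de novo synthesis and its branches turned from -0.12 and -0.30 to 0.21 and 0.03.

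**Figure D4:**
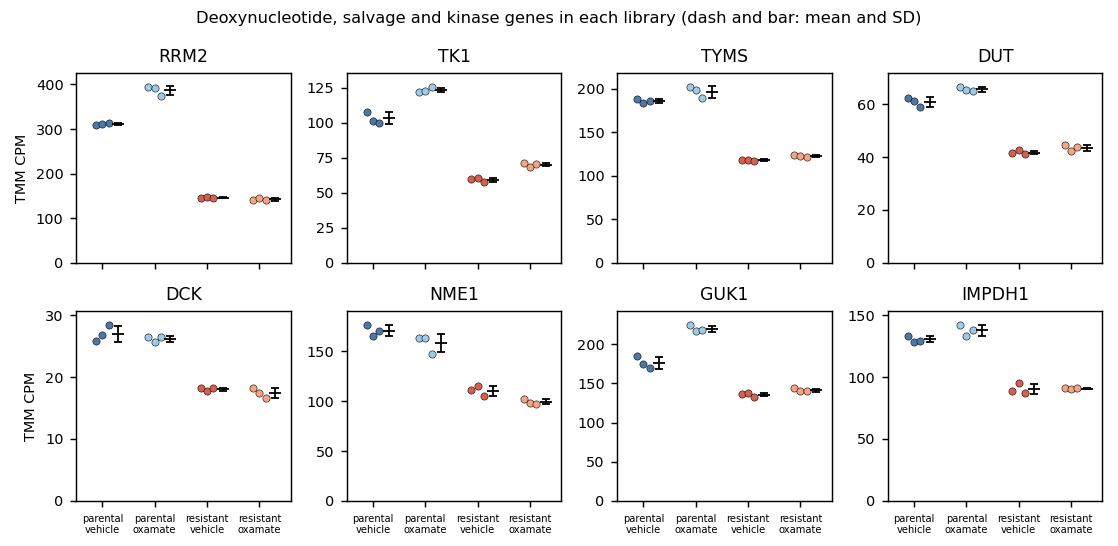
TMM CPM of 8 deoxynucleotide, salvage, kinase and GMP branch genes in each of the 12 libraries, with the mean and SD of each group and axes that start at 0. All 6 resistant libraries lie below all 6 parental libraries for each of the 8 genes. These are the 8 members called lower in resistant cells under oxamate by the rule that added a fold. The separation therefore follows in part from how they were chosen, and the share of all genes tested with such separation was not counted. RRM2 in parental cells rises from 311 to 386.6 after oxamate.

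Sums over the role groups were also read by library, and their direction between the lines depended on the group and the scaling. The deoxynucleotide genes summed to between 836 and 844 TMM CPM in vehicle-treated and between 897 and 943 TMM CPM in oxamate-treated parental cells, and to between 531 and 540 TMM CPM in all 6 resistant libraries. The salvage genes summed to between 475 and 509 TMM CPM in the parental and between 371 and 386 TMM CPM in the resistant libraries. Without TMM the purine de novo sum under oxamate was 963 to 982 CPM in parental and 1070 to 1085 CPM in resistant cells. After vehicle this sum overlapped between the lines. The pyrimidine de novo sum under oxamate was 233 to 251 CPM and 327 to 344 CPM. On TMM scaling these sums under oxamate were 1066 to 1118 against 958 to 979, and 266 to 278 against 295 to 308. Over all 33 genes the sum was 4006 to 4160 TMM CPM in parental and 3129 to 3298 TMM CPM in resistant cells. As CPM of the library total without TMM, the lines were closer, at 3617 to 3892 and 3493 to 3557, and still without overlap. A sum weighs the most abundant genes most and does not show the direction of most members. On library size alone 12 members were higher and 13 lower in resistant cells after vehicle (median log2 fold change -0.007). Under oxamate 17 were higher and 14 lower (median 0.11).

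Ratios between paralogues in the same library do not depend on the scaling. Each was compared with a two-sided exact permutation test, which with 3 libraries against 3 cannot go below p = 0.1. The log2 ratio of CTPS1 to CTPS2 was -0.67, -0.64 and -0.69 in vehicle-treated and -1.5, -1.43 and -1.44 in oxamate-treated parental cells, a difference of -0.79 with no overlap (exact p = 0.1). In resistant cells the difference was -0.09. The log2 ratio of RRM2 to RRM2B was 3.44, 3.41 and 3.36 in vehicle-treated parental cells, 3.94, 3.89 and 3.92 after oxamate, and 2.30, 2.39 and 2.39 in vehicle-treated resistant cells. Its difference between the lines was -1.04 after vehicle and -1.58 after oxamate, and its oxamate response in resistant cells was -0.03, with overlap (exact p = 0.7). The log2 ratio of UCK2 to UCK1 was 1.51, 1.49 and 1.46 in vehicle-treated parental cells, and it was lower by 0.48 after oxamate and by 0.45 in resistant cells (exact p = 0.1 each). IMPDH1 to IMPDH2 was lower by 0.35 and PRPS1 to PRPS2 by 0.26 in vehicle-treated resistant cells, also without overlap.

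**Figure D5:**
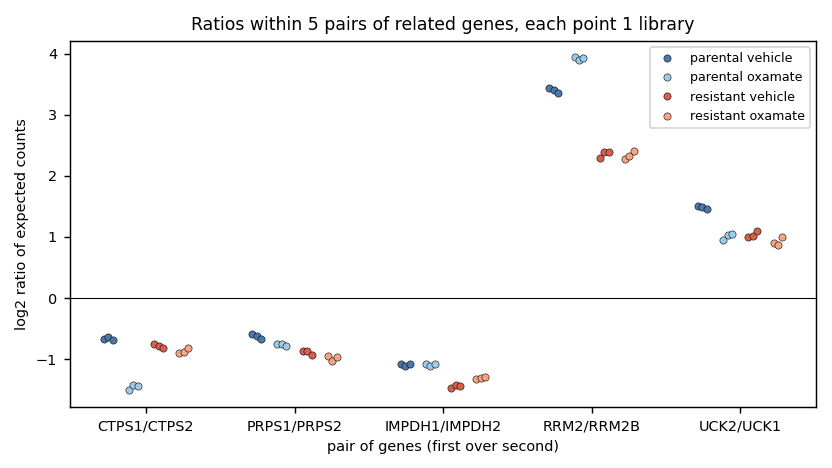
Log2 ratio of expected counts within 5 pairs of related genes, each point 1 library, coloured by group. The ratio of CTPS1 to CTPS2 falls to between -1.5 and -1.43 in oxamate-treated parental cells, and that of RRM2 to RRM2B lies between 2.28 and 2.40 in all resistant libraries.

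Lists of other genes were read beside the members. Of all genes tested, 37.3% were lower and 38.4% higher in resistant than parental cells after vehicle, and 39.7% and 40.6% under oxamate. After oxamate, 30.4% were lower and 28.3% higher in parental cells, and 12.5% and 9.01% in resistant cells. Of 20 genes of the S phase and mitosis, 20 were lower in vehicle-treated resistant than parental cells (12 past a fold of 1.5, median log2 fold change -0.65), among them MCM7 at -0.99 and CDK1 at -0.82. Their summed level was 3350 to 3414 TMM CPM in vehicle-treated parental and 2213 to 2257 TMM CPM in vehicle-treated resistant cells, and with library size alone 16 were lower and 1 higher. These genes moved with RRM2, TK1, TYMS and DUT between the lines, and whether this reflects fewer cycling cells was not tested. After oxamate in parental cells 6 of the 20 were higher and 7 lower (median -0.04), or 3 and 13 on library size alone (median -0.12), and in resistant cells 6 were higher and 0 lower (15 of 20 above 0). Under oxamate 18 of the 20 were lower in resistant cells and 1 was higher, or 13 and 3 on library size alone.

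The 13 folate genes, which supply one-carbon units for purines and dTMP, were mostly lower in vehicle-treated resistant cells (11 lower and 1 higher, median -0.22), but 4 were lower and 3 higher with library size alone. After oxamate 4 were lower and 2 higher in parental cells (9 and 1 on library size alone), and 3 were lower and 2 higher in resistant cells (3 and 3 on library size alone). Of 11 tested transcription factors known to act on these genes, E2F1 was lower in resistant cells (log2 fold change -0.79 after vehicle and -0.83 after oxamate). E2F3 and E2F8 were lower after oxamate in parental cells (-0.69 and -0.91) and their responses differed between the lines (0.75 and 0.98). E2F8 was at 4.91, 5.01 and 5.44 TMM CPM after vehicle and at 2.81, 2.48 and 2.85 TMM CPM after oxamate in parental cells. Under oxamate ATF4, E2F3, E2F7 and E2F8 were higher in resistant cells by 0.59, 1.03, 0.61 and 1.32. In the list as a whole, 3 were higher and 6 lower after oxamate in parental cells, and 0 and 2 in resistant cells. Between the lines 4 were higher and 3 lower after vehicle, and 5 were higher and 4 lower under oxamate. On library size alone these counts were 0 and 6, 0 and 1, 9 and 1, and 10 and 1, so the balance between the lines rests on the scaling. The shares of all genes called in the same comparisons on TMM scaling are given above, before the S phase list.

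Several members share exonic bases with other annotated genes, and the libraries did not keep strand. TYMS shares 39.1% of its exonic bases with ENOSF1 and 7.41% with TYMSOS, both on the opposite strand, and DUT shares 14.5% with an antisense gene. On the same strand RRM2 shares 20.2%, ADSL 18.9% and NME1 18.6% of their exonic bases with overlapping gene models, for NME1 the read-through gene NME1-NME2. Reads in these bases could belong to either gene, so the levels of these members carry that uncertainty.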

How the data were processed

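RNA of MIAPaCa2 cells was sequenced as 12 unstranded libraries in 4 groups of 3. The authors deposited 1 table of RSEM expected counts per gene symbol, which had not been normalized. The submitters' processing notes name Bowtie2 2.1.0, RSEM 1.2.15 and hg38, while the study's methods also describe trimming with Trimmomatic, STAR alignment and featureCounts. Groups were taken from the sample labels, and every column matched 1 sample.

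Expected counts were rounded to whole numbers. Genes with low counts were removed with filterByExpr, which left 14582 of 26475. TMM factors and a model with 1 mean per group were fitted with edgeR 4.0.16 (R 4.3.3), and contrasts were tested with its quasi-likelihood test, with Benjamini-Hochberg adjustment over all genes. Standard errors are the log2 fold change divided by the square root of F. The code was tested on simulated data. Gene positions are from GENCODE release 29 (GRCh38). Figures were drawn with matplotlib 3.10.9. Alternatives were other scalings, filters, limma-voom (limma 3.58.1), DESeq2 1.42.0, the replicate block, the study's threshold (unadjusted p under 0.05, fold over 1.5) and leaving out libraries.

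The members and lists were chosen with earlier results of these data known. All 33 members are accounted for. Values per library are given for members past a fold of 1.5 in any comparison, for the member with the smallest p in each role and for paralogue pairs. Other genes are named where they passed that fold and belong to a list.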

Additional observations from a re-analysis of the deposited data

Results flagged for a closer look

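For 16 of the 33 genes the response to oxamate differed between the lines by a test of the difference itself, the contrast of the response in resistant cells minus that in parental cells (edgeR's quasi-likelihood test, Benjamini-Hochberg adjusted over all genes tested). On the log2 scale the difference was 0.82 for UMPS, 0.59 for PFAS, 0.53 for CTPS1, 0.30 for CAD, 0.27 for DHODH, 0.25 for GART, 0.24 for ADSL, 0.20 for UCK2 and 0.18 for RRM2B. It was -0.36 for RRM2, -0.26 for GUK1, -0.21 for IMPDH2, -0.18 for APRT, -0.17 for CTPS2, -0.16 for UCK1 and -0.15 for PAICS. These are 9 positive and 7 negative genes of 33, close to the shares of all genes tested (22.7% and 21.4%). In fits that left out 1 library, 14 of the 16 passed every time, and the exceptions were RRM2B and UCK1. With library size alone PAICS, CTPS2, APRT and UCK1 did not pass (adjusted p = 0.305, 0.216, 0.197 and 0.463).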

How the results depend on the processing

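With library size alone as the scaling, 4 members were higher after oxamate in parental cells, 7 were higher after oxamate in resistant cells, 12 were higher and 13 lower in resistant than parental cells after vehicle, 17 were higher and 14 lower after oxamate, and 17 were positive and 3 negative for the difference between responses. Directions turned for RRM1 after oxamate in parental cells (-0.0038). Between the lines after vehicle they turned for GART (0.13), ATIC (0.083), IMPDH2 (0.045), ADSS (0.13), DHODH (0.10), CTPS1 (0.13), DTYMK (0.053), DCTD (0.13), RRM2B (0.18) and APRT (0.010). After oxamate they turned for PRPS2 (0.15), ATIC (0.26), GMPS (0.11), ADSS (0.20), CTPS2 (0.18), DTYMK (0.28), DCTD (0.24), UCK2 (0.26) and CMPK1 (0.017), and for the difference between responses they turned for TYMS (0.084) and RRM1 (0.10). Upper-quartile factors turned ATIC (0.020) and DCTD (0.0046) after oxamate between the lines, and gave 5 higher members after oxamate in resistant cells and 5 higher between the lines after vehicle. The cause was not tested.

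A fit of only the 6 libraries compared gave 5 higher members after oxamate in resistant cells. The threshold of an unadjusted p under 0.05 with a fold over 1.5, stricter in fold, gave 0 higher and 2 lower in parental cells, 0 and 0 in resistant cells, 0 and 4 between the lines after vehicle, 2 and 8 after oxamate, and 2 positive and 0 negative for the difference. Leaving out 1 library at a time gave 6 to 12 higher members in parental cells and 1 to 2 in resistant cells. With the replicate block, the counts of higher and lower members were 13 and 18, 3 and 11, 3 and 27, 7 and 22, and 9 and 7. Libraries with the same replicate number had correlations of -0.10 to 0.37 in their deviations from group means, over 0.1 in 6 of 18 pairs. Pairs with different numbers had -0.30 to 0.19, over 0.1 in 6 of 36. The numbers were not taken to pair the samples in the main fit. Whether libraries of the same number share an effect was not tested.

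With both libraries of high MALAT1 left out together, an alternative chosen after seeing the data, the counts were 13 and 14, 3 and 12, 2 and 25, 8 and 22, and 8 and 9. PFAS then had a log2 fold change of 0.08 between the lines after vehicle (adjusted p = 0.115, edgeR's quasi-likelihood test). The oxamate-treated resistant libraries, with MALAT1 at 577 to 742 TMM CPM, all stayed in. This fit therefore does not remove the difference in MALAT1 between groups. Depth did not limit the members, which had at least 779 counts per library. The bound of 3 counts for a count of 0 covers counting error only, whereas the SEs also hold the spread between these libraries.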

Other observations

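Among enzymes that break nucleosides down, PNP, the purine nucleoside phosphorylase, was at 91.1, 88.5 and 89.9 TMM CPM in vehicle-treated parental cells and at 38.4, 38.6 and 37.8 TMM CPM in vehicle-treated resistant cells, with no overlap (log2 fold change -1.23). UPP1, a uridine phosphorylase, and DPYD, which degrades uracil and thymine, were lower by 0.74 and 0.64 on the log2 scale. NUDT1, which hydrolyses oxidized purine nucleotides, was lower by 0.73. CDA, the cytidine deaminase, was higher by 0.78, at 2.77, 2.33 and 2.17 TMM CPM in parental and 4.07, 4.33 and 4.18 TMM CPM in resistant cells. Of the 21 genes of this list that were tested, 7 were higher and 10 lower in resistant cells after vehicle, where 38.4% of all genes tested were higher and 37.3% lower, and on library size alone 11 were higher and 8 lower.

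SLC29A1, the main equilibrative nucleoside transporter, was at 101, 98.5 and 98.7 TMM CPM in vehicle-treated and at 123, 125 and 122 TMM CPM in oxamate-treated parental cells. In resistant cells it was at 60.0, 58.9 and 59.6 TMM CPM after vehicle and at 59.8, 57.5 and 58.6 TMM CPM after oxamate. All resistant libraries were below all parental libraries (log2 fold change -0.74 after vehicle and -1.07 after oxamate). SLC29A3, a lysosomal transporter, was higher in resistant cells under oxamate by 1.00. Among other nucleotide kinases, AK1 and AK5 were lower after vehicle by 0.66 and 0.71, and NME6 was higher by 0.62. Of 20 such salvage and kinase genes tested, 6 were higher and 11 lower after vehicle, where 38.4% of all genes were higher and 37.3% lower. On library size alone 9 of these 20 were higher and 8 lower.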
